A study of Mus musculus with 21 samples.

Results

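The MHC class I presentation and immunoproteasome genes were followed in the left ventricles of mice with and without the R403Q mutation, on a control or an empagliflozin diet. The group holds 10 genes, H2-K1, H2-D1, B2m, Tap1, Tap2, Tapbp, Nlrc5, Psmb8, Psmb9 and Psmb10. They were picked by symbol from the 55450 genes of the count table, and all 10 passed the filter on low counts that left 17309 genes for testing. RNA was sequenced from 21 male mice of the strain 129S6/SvEv. The mutant mice were heterozygous for R403Q, a missense mutation of the α-myosin heavy chain (Myh6+/R404Q in the labels), and the others were their wild-type littermates. Control chow (CD) was fed to 5 wild-type mice (WT-CD) and 7 mutant mice (R403Q-CD). Chow with empagliflozin (EMPA), an inhibitor of the sodium-glucose cotransporter SGLT2, at 0.15 mg per g was fed to 4 mutant mice (R403Q-EMPA) and 5 wild-type mice (WT-EMPA). The methods of the study place the RNA samples at 12 weeks of age after 2 weeks of diet, whereas the labels give 16 weeks of treatment, and the duration was not settled here.

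MHC class I molecules carry short peptides from inside the cell to its surface, where CD8+ T cells read them. The heavy chains H2-K1 and H2-D1 pair with the light chain B2m. Peptides are cut by the proteasome, pumped into the endoplasmic reticulum by the transporter made of Tap1 and Tap2, and loaded onto the heavy chain with the help of tapasin (Tapbp). In cells exposed to interferon, the catalytic subunits Psmb8, Psmb9 and Psmb10 replace the constitutive subunits Psmb5, Psmb6 and Psmb7 and form the immunoproteasome. Nlrc5 is a transactivator of class I genes. In the heart, cardiomyocytes are known for low class I expression, and endothelial cells and leukocytes for higher expression.

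Of the members, 7 lie on chromosome 17 of GRCm38 (mm10), where the MHC is located. H2-K1 (ENSMUSG00000061232) spans 33996017 to 34000347 on the minus strand and H2-D1 (ENSMUSG00000073411) spans 35262730 to 35267499 on the plus strand. Psmb9 (34181987 to 34187764, minus strand), Tap1 (34187553 to 34197225), Psmb8 (34197721 to 34201454) and Tap2 (34203527 to 34216321) follow each other, and Psmb9 and Tap1 start head to head with an overlap of 212 bases. Tapbp spans 33915899 to 33929292 and shares 3422 bases with Zbtb22 on the same strand, where reads cannot be assigned to either gene with certainty. B2m lies on chromosome 2 (122147686 to 122153083), and Nlrc5 (94434356 to 94527272) and Psmb10 (105935735 to 105938444) lie on chromosome 8. The longest protein-coding transcripts of H2-K1 and H2-D1 were identical at 1332 of 1475 aligned bases (90.3%), so the counts of these genes and of their H2-Q relatives are uncertain where reads could be split between copies.

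The promoters of H2-K1 and B2m are shown because both chains rose in R403Q hearts and their upstream bases hold motifs named after the interferon response. They are RefSeq sequences of GRCm38.p6, 5′ to 3′ on the strand of the gene, ending just before the start. For H2-K1 the stretch is chr17:34000348-34000547 on the minus strand, and for B2m it is chr2:122147487-122147685 on the plus strand. Capitals mark matches to the motifs described below.
H2-K1: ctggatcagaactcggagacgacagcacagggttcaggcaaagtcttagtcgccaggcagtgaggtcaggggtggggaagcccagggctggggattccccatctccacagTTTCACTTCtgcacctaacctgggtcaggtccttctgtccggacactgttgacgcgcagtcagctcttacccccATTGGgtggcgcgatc
B2m: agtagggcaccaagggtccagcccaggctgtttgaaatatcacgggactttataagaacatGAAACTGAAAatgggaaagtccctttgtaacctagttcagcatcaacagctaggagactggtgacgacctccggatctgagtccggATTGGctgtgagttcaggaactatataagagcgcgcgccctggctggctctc

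Of the members, 8 had a promoter in the RefSeq table, and Nlrc5 and Tap2 had none. Motifs were searched on both strands in the 250 bases before each RefSeq start. For H2-D1, Psmb8, Psmb9 and Tapbp these bases lie inside the gene spans given above, which begin further upstream. The interferon-stimulated response element, GAAA and GAAA separated by 2 bases, was found in B2m alone among the 8 and in 2.98% of all 32851 promoter windows. Its shorter form GAANNGAAA, which was added after the sequences were seen, was found in H2-K1 and H2-D1 and in 6.31% of all windows. The gamma-activated site TTCNNNGAA was found in Psmb8 alone and in 7.02% of all windows, and the CCAAT box CCAAT in 6 of the 8 members and in 33.8% of all windows. A match says only that these letters are present.

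Each library held between 23491535 and 43539684 counts, and 3 counts, the lowest level taken as shown, stood for 0.0689 to 0.128 CPM (counts scaled to a common library total). This covers counting error only. The 4 cages of mice on the control diet and the 3 cages of mice on EMPA did not overlap, so that cage and diet cannot be told apart, whereas 6 of the 7 cages held both genotypes. Myh6, the gene that carries the mutation, averaged 43239 CPM in WT-CD hearts (SD 2321, n = 5) and 32934.5 CPM in R403Q-CD hearts (SD 7865, n = 7). The mouse R403Q-CD 2 had the lowest sum over 6 cardiomyocyte markers (39305 CPM, against 71290 to 79144 in WT-CD) and the highest sum over 5 fibroblast markers (2987 CPM, against 973 to 1567 in WT-CD). This mouse and R403Q-EMPA 3 held the highest value of 9 of the 10 members, and the main results are given with and without them. R403Q-EMPA 3 also had the highest sum over 6 endothelial markers of the 21 mice (967 CPM, against 763 to 801 CPM in the other R403Q-EMPA mice and at most 828 CPM in any other group).

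Levels were compared between members per kilobase of exon, with every annotated exon base of a gene counted once over all its transcripts. This length was 2938 bases for H2-K1 and 2579 for H2-D1. Their longest protein-coding transcripts had 1619 and 2102 bases, so levels and ranks between members depend on the length used. Averaged over the 21 mice, B2m was the most abundant at 206 CPM per kb. The heavy chains H2-D1 and H2-K1 stood at 45.0 and 27.5 CPM per kb, and tapasin at 24.2. Among the immunoproteasome subunits, Psmb10 had 22.9 CPM per kb, Psmb8 3.22 and Psmb9 1.34. Within the peptide transporter, Tap2 had 7.88 CPM per kb and Tap1 1.25. Nlrc5 was lowest at 0.139 CPM per kb, with between 17 and 119 counts in a library. At this depth Nlrc5 values were imprecise, and its differences between groups were not resolved.

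In R403Q hearts the light chain, both heavy chains, Tap1 and Psmb10 were higher than in wild-type hearts when the genotypes were compared over both diets. B2m changed most, by 1.63-fold. Tap2 and tapasin were within 1.04-fold of wild type, and Psmb8 and Psmb9 were 1.26- and 1.25-fold of wild type without passing the test. These values are the average of the genotype difference on the control diet and that on the EMPA diet, and they come from a single edgeR quasi-likelihood model of the 4 groups, with Benjamini-Hochberg adjustment over all 17309 genes. By this test 5 of 10 members rose and 0 fell, while 6.3% of all genes tested rose and 4.58% fell. No member placed all R403Q above all wild-type mice, as 0.139% of all genes did. The median log2 fold change was 0.33 over the members and 0.01 over all genes tested. Because the members were chosen with earlier results of these data known, these shares and medians describe them and are no independent test.

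B2m, the light chain without which class I heavy chains do not reach the cell surface, had 120, 140, 122, 127 and 182 CPM in WT-CD hearts. In WT-EMPA hearts it had 86.5, 137, 159, 141 and 119 CPM. In R403Q-CD hearts B2m ran from 146 to 373 CPM with a median of 200 CPM, and in R403Q-EMPA hearts it had 230, 179, 331 and 131 CPM. Of the 11 R403Q mice, 8 lay above the highest wild-type mouse, and the genotypes overlapped through R403Q-CD 3, R403Q-EMPA 2 and R403Q-EMPA 4. Its log2 fold change was 0.71 ± 0.16 (SE), with an edgeR adjusted p of 0.0118.

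H2-K1, a classical heavy chain, had 65.3, 72.0, 62.4, 54.6 and 88.0 CPM in WT-CD and 55.8, 73.0, 68.4, 67.9 and 62.4 CPM in WT-EMPA hearts. In R403Q-CD hearts H2-K1 ran from 67.0 to 131 CPM (median 93.9), and in R403Q-EMPA hearts it had 84.2, 74.0, 159 and 72.8 CPM. All 11 R403Q mice lay above the wild-type median of 66.6 CPM, but only 5 lay above the highest wild-type mouse. The log2 fold change was 0.50 ± 0.14 (SE, edgeR adjusted p = 0.0274).

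H2-D1, the other classical heavy chain, had 84.5, 101, 88.9, 88.2 and 119 CPM in WT-CD and 87.7, 116, 101, 99.8 and 101 CPM in WT-EMPA hearts. It ran from 100 to 190 CPM in R403Q-CD hearts (median 122) and had 127, 126, 211 and 105 CPM in R403Q-EMPA hearts. The groups overlapped, with 7 of 11 R403Q mice above the highest wild-type mouse. The log2 fold change was 0.44 ± 0.12 (SE, edgeR adjusted p = 0.0249).

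Tap1, which forms the peptide transporter with Tap2, had 6.51, 5.50, 5.27, 5.06 and 6.46 CPM in WT-CD and 5.85, 6.98, 5.91, 5.81 and 4.72 CPM in WT-EMPA hearts. Its R403Q-CD values ran from 5.94 to 12.3 CPM (median 6.78), and its R403Q-EMPA values were 7.36, 7.09, 10.1 and 5.86 CPM. The 11 R403Q mice all lay above the wild-type median of 5.83 CPM, and 6 lay above the highest wild-type mouse. The log2 fold change of Tap1 was 0.41 ± 0.13 (SE, edgeR adjusted p = 0.0385), whereas that of its partner Tap2 was 0.04 ± 0.05 (SE, edgeR adjusted p = 0.573). The 95% interval of the Tap2 difference ran from -0.05 to 0.14 on the log2 scale. Tapasin, which holds the empty heavy chain next to the transporter, had an interval of -0.05 to 0.16 around a log2 fold change of 0.05 (edgeR adjusted p = 0.505).

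Psmb10, a catalytic subunit of the immunoproteasome, had 32.9, 38.8, 34.2, 37.6 and 44.0 CPM in WT-CD hearts. It had 29.2, 31.5, 35.2, 32.0 and 30.3 CPM in WT-EMPA hearts, where 4 of the 5 mice lay below the WT-CD minimum. In R403Q-CD hearts Psmb10 ran from 39.7 to 52.2 CPM (median 43.6), and in R403Q-EMPA hearts it had 39.9, 42.0, 36.8 and 35.8 CPM. The genotype difference was 0.29 ± 0.06 on the log2 scale (SE, edgeR adjusted p = 0.00928), the smallest adjusted p among the members. Psmb8 ran from 7.89 to 11.8 CPM in wild-type and from 8.0 to 17.8 CPM in R403Q hearts (log2 fold change 0.33 ± 0.11 SE, edgeR adjusted p = 0.0548). Psmb9 ran from 3.26 to 5.29 CPM in wild-type and from 3.70 to 6.97 CPM in R403Q hearts (log2 fold change 0.32 ± 0.11 SE, edgeR adjusted p = 0.0674). Nlrc5 ran from 0.505 to 1.84 CPM in wild-type and from 0.722 to 2.46 CPM in R403Q hearts, with a log2 fold change of 0.23 ± 0.24 (SE, edgeR adjusted p = 0.548).

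**Figure D1:**
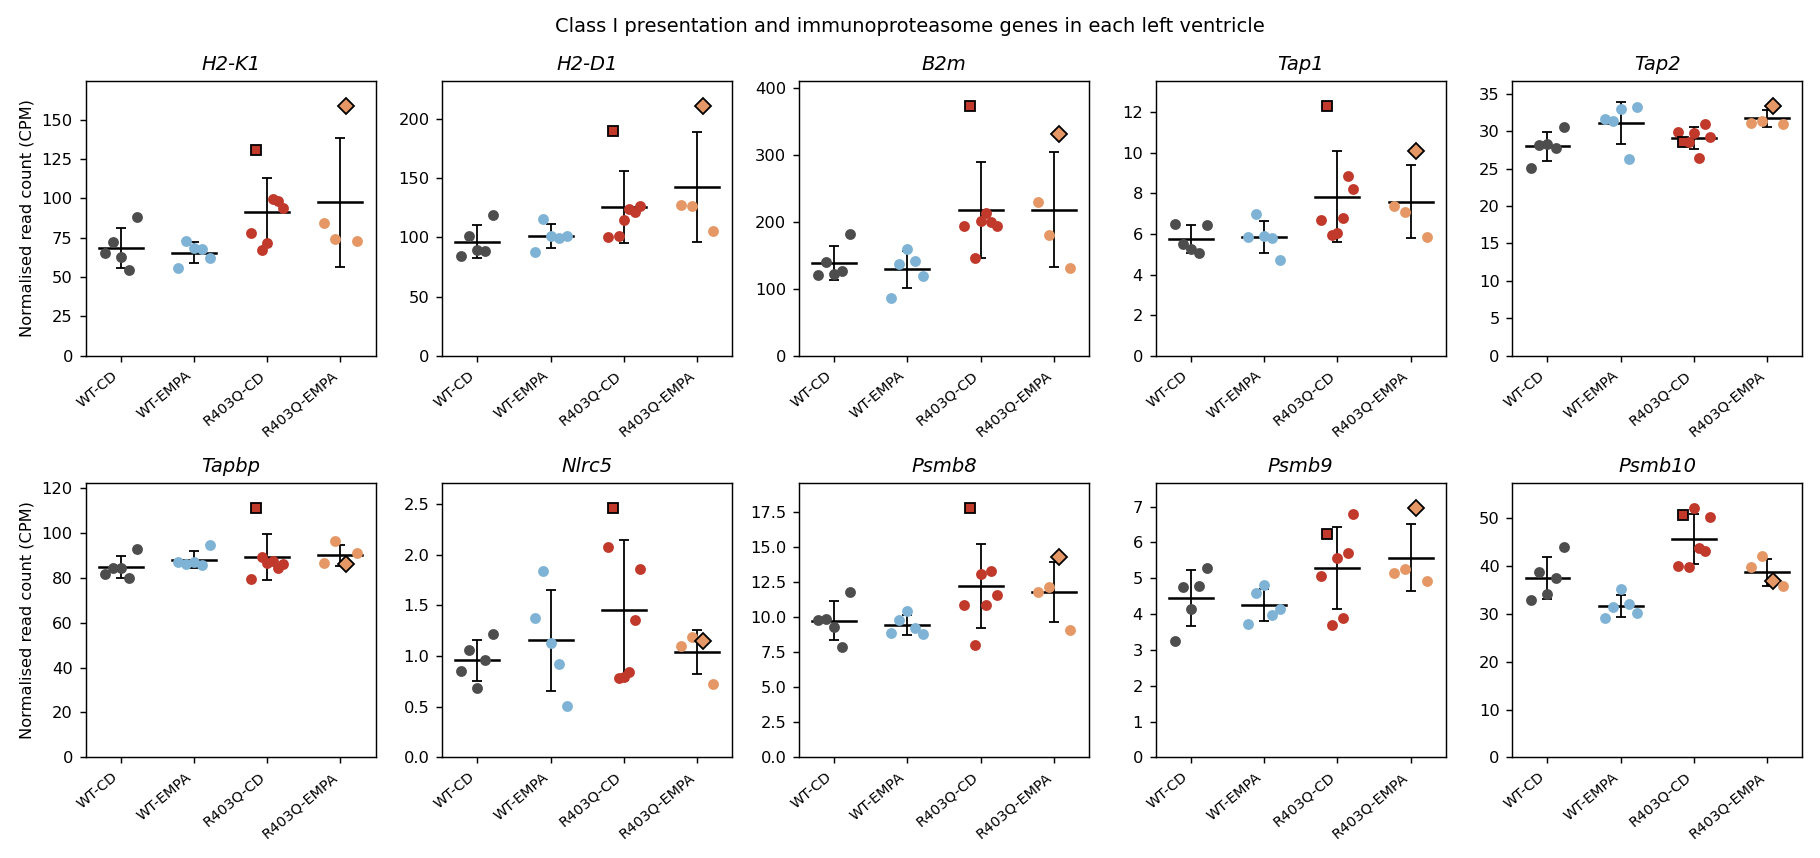
Each panel plots 1 gene as normalised read count (CPM, y axis from 0) in the 21 mice of the 4 groups (x axis), with a line for the group mean and bars for the SD; the square is R403Q-CD 2 and the diamond R403Q-EMPA 3. For B2m, 8 of the 11 R403Q mice sit above the highest wild-type mouse, while in the Tap2 and Tapbp panels the genotypes on a diet lie close together, and Tap2 is higher on EMPA in group means (31.1 and 31.7 CPM) than on the control diet (28.0 and 29.1 CPM).

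**Figure D2:**
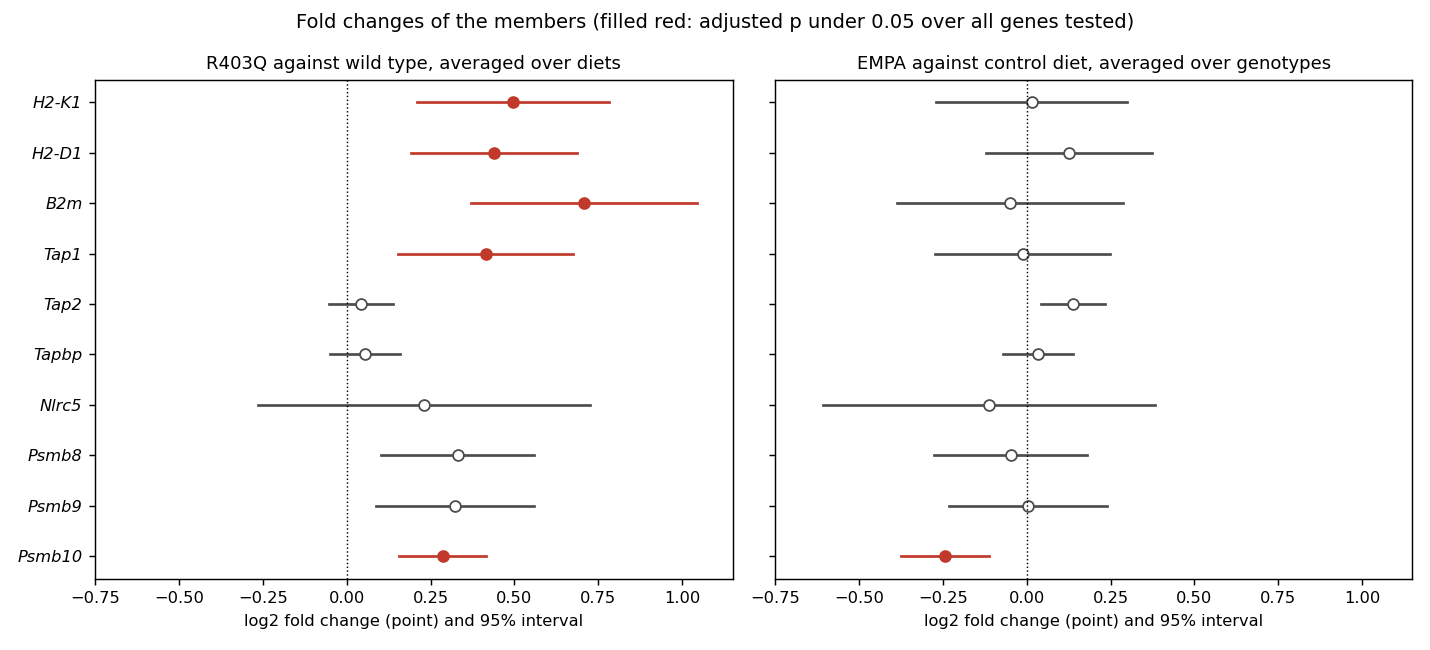
Points are the log2 fold changes of the 10 members and lines their 95% intervals (x axis), for R403Q against wild type averaged over diets on the left and for EMPA against the control diet averaged over genotypes on the right; filled red points had an edgeR adjusted p under 0.05. On the left 5 members are filled, all above 0, and on the right Psmb10 alone is filled, at -0.24.

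The genotype calls depended on the setting and on single mice to different degrees. Psmb10 passed in 8 of 8 other settings and in 21 of 21 fits that each left out 1 mouse. B2m passed in 7 of 8 settings and in 21 of 21 fits, the exception being the model with cage as a fixed factor (edgeR adjusted p = 0.0502). H2-D1 lost its call without WT-CD 1, WT-EMPA 1 or R403Q-EMPA 3 (edgeR adjusted p = 0.05003, 0.0512 and 0.0716), and with cage as a fixed factor. H2-K1 lost it without any one of these mice or WT-CD 4 and with cage as a fixed factor, and without R403Q-EMPA 3 its log2 fold change was 0.32 (edgeR adjusted p = 0.0784). Tap1 passed in 5 of 8 settings, not without a filter on low counts (edgeR adjusted p = 0.0535), with limma on variance-stabilized values (adjusted p = 0.0522) or without both high mice, and in 10 of 21 fits, failing without WT-CD 1, 2, 3 or 4, WT-EMPA 1, 4 or 5, R403Q-CD 6, or R403Q-EMPA 1, 2 or 3. Psmb8 and Psmb9 passed without R403Q-CD 3 (edgeR adjusted p = 0.0157 and 0.0286), with DESeq2 (adjusted p = 0.0317 and 0.0409) and with library size alone, and Psmb8 also passed without WT-CD 5, WT-EMPA 3 or R403Q-EMPA 4. Leaving out both R403Q-CD 2 and R403Q-EMPA 3 left H2-D1, B2m and Psmb10 past the threshold, at smaller log2 fold changes of 0.24 for H2-D1 (edgeR adjusted p = 0.0403) and 0.47 for B2m (edgeR adjusted p = 0.0181), and 0.28 for Psmb10 (edgeR adjusted p = 0.0130). In the same fit H2-K1 stood at 0.26 (edgeR adjusted p = 0.0702) and Tap1 at 0.25 (edgeR adjusted p = 0.0970). Over all genes, that fit called 792 higher, against 1091 in the main fit.

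Within each diet alone, no member passed the threshold. Of the 10 members, 0 were called between R403Q-CD and WT-CD hearts, where edgeR called 1.44% of all genes tested. All 10 members had a positive log2 fold change there, as did 52.5% of all genes, and 6 of them had an unadjusted p under 0.05, as did 20.9% of all genes. B2m was 1.57-fold of WT-CD (edgeR adjusted p = 0.102) and Psmb10 1.22-fold (edgeR adjusted p = 0.0717). DESeq2's Wald test called these 2 members (adjusted p = 0.0415 for B2m and 0.0319 for Psmb10), and edgeR without R403Q-CD 3 called the same 2 (adjusted p = 0.0471 and 0.0332). Over all genes these fits called 970 and 1045, against 250 in the main fit. Scaled to library size alone, edgeR called Psmb10 (adjusted p = 0.0495), which it also called without WT-CD 5 (adjusted p = 0.0404) or without R403Q-CD 1 (adjusted p = 0.0482). Without R403Q-CD 2 the log2 fold change of H2-D1 went from 0.38 to 0.25 and that of Tap1 from 0.45 to 0.30. No member separated these groups, with every R403Q-CD mouse above every WT-CD mouse, as 1.12% of all genes did.

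In R403Q-EMPA against WT-EMPA hearts, 0 of 10 members were called by edgeR or by DESeq2, where edgeR called 0.0578% of all genes. An unadjusted p under 0.05 was found for 5 members and for 14.7% of all genes. B2m was 1.69-fold of WT-EMPA (edgeR adjusted p = 0.171) and Psmb10 1.22-fold (edgeR adjusted p = 0.179). Without R403Q-EMPA 3 the log2 fold change of B2m went from 0.76 to 0.47 (edgeR adjusted p = 0.431), and those of H2-K1, H2-D1 and Tap1 from 0.57, 0.50 and 0.38 to 0.23, 0.23 and 0.20. For Psmb9 and Psmb10 every R403Q-EMPA mouse lay above every WT-EMPA mouse, as did 3.35% of all genes tested. The margins were small, with nearest values of 4.92 and 4.81 CPM for Psmb9 and of 35.8 and 35.2 CPM for Psmb10.

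Between the diets 1 member was called over both genotypes, and diet and cage cannot be told apart in this comparison. Psmb10 was lower with EMPA by 0.24 ± 0.06 on the log2 scale (SE, 0.845-fold, edgeR adjusted p = 0.0405), in a comparison where 2.91% of all genes were called and 0.936% fell. Leaving out 1 mouse moved the 504 genes called in all to between 122 and 929. The Psmb10 mean fell from 37.5 ± 4.35 to 31.6 ± 2.29 CPM in wild-type hearts (SD, n = 5 each) and from 45.6 ± 5.26 (SD, n = 7) to 38.6 ± 2.85 CPM (SD, n = 4) in R403Q hearts. The call was held in 11 of 21 fits that left out 1 mouse, and lost without WT-CD 2, 4 or 5, WT-EMPA 1, 2 or 5, R403Q-CD 4 or 7, or R403Q-EMPA 3 or 4. It was also lost without a filter on low counts (edgeR adjusted p = 0.0534), with a random cage term in limma's voom (adjusted p = 0.112) and without both high mice (edgeR adjusted p = 0.0819). The other members ranged in log2 fold change from -0.11 (Nlrc5) to 0.14 (Tap2, edgeR adjusted p = 0.0973). Without WT-EMPA 4, whose Tap2 value of 26.3 CPM was the lowest of its group, Tap2 passed as well (log2 fold change 0.17, edgeR adjusted p = 0.0345).

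Within a genotype, no member passed for EMPA. In R403Q-EMPA against R403Q-CD hearts edgeR and DESeq2 called 0 of 10 members, and edgeR called 0.0116% of all genes. An unadjusted p under 0.05 was found for 13.4% of all genes and for 1 member, Psmb10, whose log2 fold change was -0.24 (edgeR adjusted p = 0.255). For Tap2, every R403Q-EMPA mouse (31.03 to 33.4 CPM) lay above every R403Q-CD mouse (26.4 to 30.98 CPM), a separation seen in 0.953% of all genes. The nearest mice, R403Q-EMPA 4 and R403Q-CD 6, were thus almost level. In WT-EMPA against WT-CD hearts 0 of 10 members were called by either tool, and 0.0289% of all genes by edgeR. The 2 members at an unadjusted p under 0.05 were near the share of all genes, 11%. Psmb10 had a log2 fold change of -0.25 (edgeR adjusted p = 0.304) and Tap2 one of 0.15 (edgeR adjusted p = 0.398).

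The effect of EMPA did not differ detectably between genotypes for any member. The interaction called 0 of 10 members and 0% of all genes with edgeR or DESeq2, and 0 members had an unadjusted p under 0.05, against 3.28% of all genes with edgeR. For Psmb10 the difference between the EMPA effects was 0.00 on the log2 scale, with a 95% interval of -0.25 to 0.26. For B2m the interval ran from -0.57 to 0.78, and for Nlrc5 from -1.73 to 0.25.

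The immunoproteasome subunits were set beside the constitutive subunits they replace, as a description chosen after values were seen. Exon lengths were counted as above and ran from 899 bases for Psmb5 to 3660 bases for Psmb9. The size of each percentage depends on them, while the comparison between groups does not. Per kilobase, Psmb10 stood at 41.4 ± 5.27% of Psmb7 in the 5 WT-CD hearts, at 50.9 ± 9.32% in the 7 R403Q-CD hearts, at 44.2 ± 4.03% in the 4 R403Q-EMPA hearts and at 40.3 ± 1.88% in the 5 WT-EMPA hearts (mean ± SD). Psmb8 was between 7.89 and 10.5% of Psmb5 in the group means, and Psmb9 between 1.65 and 2.13% of Psmb6. The groups overlapped in both ratios, except that every R403Q-EMPA value of the Psmb8 ratio (from 9.061%) lay above every WT-CD value (up to 9.055%). Without R403Q-CD 2 and R403Q-EMPA 3, Psmb10 stood at 48.1 ± 6.04% of Psmb7 in 6 R403Q-CD hearts and at 43.8 ± 4.84% in 3 R403Q-EMPA hearts (mean ± SD), and the highest group mean was 9.81% for the Psmb8 ratio and 1.92% for the Psmb9 ratio. Of the 10 constitutive catalytic, activator and assembly genes listed, none was called by edgeR in the averaged genotype comparison, where 4 had an unadjusted p under 0.05 beside 29% of all genes, and their median log2 fold change was 0.07. Psmb7 itself had a log2 fold change of 0.09 ± 0.07 (SE, edgeR adjusted p = 0.432), and the abundant activators Psme4 (-0.04 ± 0.08 SE) and Psme1 (-0.16 ± 0.07 SE) did not pass with edgeR either (adjusted p = 0.769 and 0.166). With EMPA averaged over genotypes, where Psmb10 was called, edgeR called none of these 10 genes, but 8 had a negative log2 fold change, the median was -0.12, and 2 had an unadjusted p under 0.05, beside 20.1% of all genes. In WT-EMPA against WT-CD hearts 8 were negative too, with a median of -0.17. Of the 10 genes, 5 had an unadjusted p under 0.05 there, beside 11% of all genes. Psmb7 ran from 141 to 174 CPM against 167 to 193 CPM (log2 fold change -0.21, edgeR adjusted p = 0.444).

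**Figure D3:**
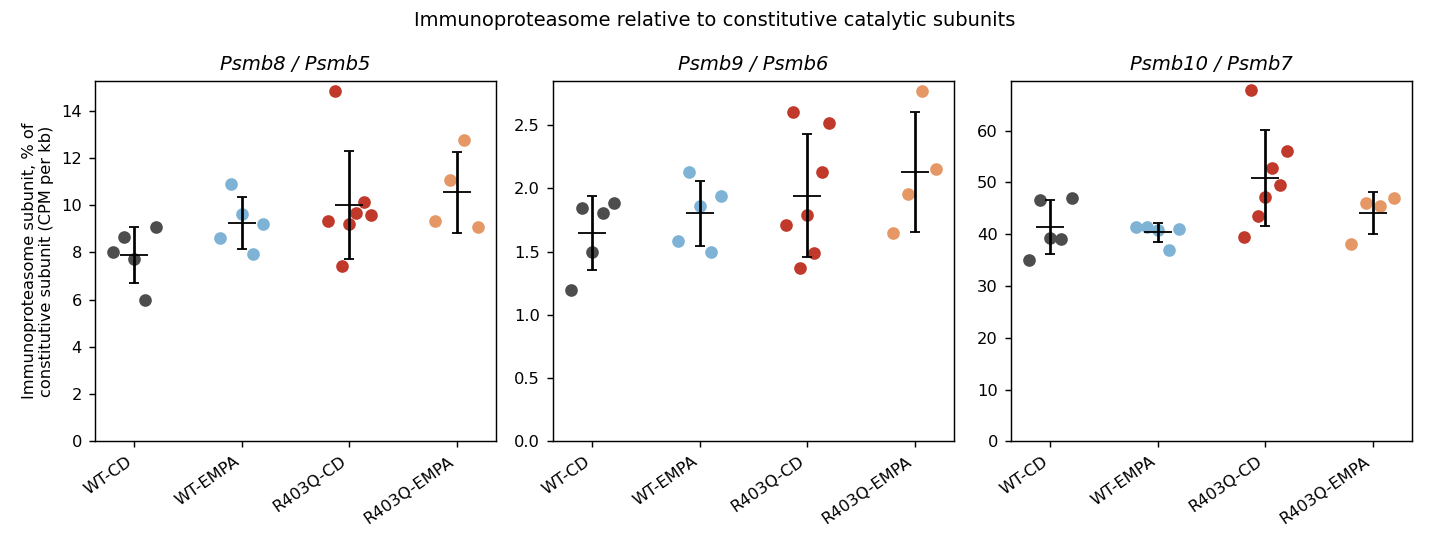
Each panel gives an immunoproteasome subunit as a percentage of the constitutive subunit it replaces (CPM per kb, y axis from 0) by mouse in the 4 groups (x axis), with the mean and SD in black. Psmb10 lies near 40% of Psmb7 in both wild-type groups, whereas Psmb9 is at about 2% of Psmb6 in all groups. The size of these percentages depends on the exon lengths used.

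Among the other class I and class I-like genes listed, 4 of 12 tested rose in the averaged genotype comparison and 0 fell, with a median log2 fold change of 0.37. They were H2-T22 (0.36 ± 0.10 SE, edgeR adjusted p = 0.0299), H2-T23 (0.34 ± 0.10 SE, edgeR adjusted p = 0.0316), H2-M3 (0.39 ± 0.12 SE, edgeR adjusted p = 0.0448) and H2-Q6 (2.64-fold, edgeR adjusted p = 0.0446). The longest transcript of H2-Q6 matched that of H2-Q7 at 974 of the 1025 bases that aligned, out of 2085, and its R403Q-EMPA values ran from 0.806 to 12.7 CPM with a median of 1.26 CPM. Without R403Q-CD 2 and R403Q-EMPA 3, 0 of the 12 genes passed, the median log2 fold change was 0.20, and H2-Q6 stood at 0.25 (edgeR adjusted p = 0.541). All 4 calls were also lost without any one of WT-CD 1, WT-CD 4, WT-EMPA 1 or R403Q-EMPA 3, and H2-Q6 stood at 0.47 without R403Q-EMPA 3 (edgeR adjusted p = 0.351). Over the 21 fits that left out 1 mouse, H2-T22 passed in 16, H2-T23 in 12, H2-Q6 in 10 and H2-M3 in 5. The most abundant genes of this list, Fcgrt, the neonatal Fc receptor (0.14 ± 0.07 SE, edgeR adjusted p = 0.175), Mr1, which presents microbial metabolites (0.10 ± 0.08 SE, edgeR adjusted p = 0.395), and H2-T24 (0.21 ± 0.09 SE, edgeR adjusted p = 0.140), did not pass. H2-T3, H2-Q1, H2-Q2 and H2-Bl had too few counts to be tested.

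Of the peptide trimming and loading partners, 1 of 9 tested rose, Tapbpl, a relative of tapasin that edits peptides (0.21 ± 0.06 SE, edgeR adjusted p = 0.0265). The abundant chaperones Hspa5 (-0.09 ± 0.09 SE), Canx (-0.10 ± 0.06 SE) and Calr (-0.09 ± 0.08 SE) did not pass with edgeR (adjusted p = 0.541, 0.317 and 0.482). The list's median log2 fold change was -0.03. Of the 16 regulators of class I transcription, which include interferon receptors, kinases and the Rfx and Nfy factors, edgeR called 0. Beside 29% of all genes, 1 of the 16 regulators had an unadjusted p under 0.05. Their median was -0.01, and the most abundant, the kinase Jak1 (0.12 ± 0.10 SE) and the interferon gamma receptor chains Ifngr2 (-0.14 ± 0.07 SE) and Ifngr1 (0.15 ± 0.07 SE), did not pass with edgeR (adjusted p = 0.431, 0.21 and 0.173). Without both high mice edgeR called 1 of the 9 partners, Tapbpl (0.23, adjusted p = 0.0295), 0 of the 16 regulators and 0 of the 10 constitutive proteasome genes.

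Of 15 interferon-induced genes tested, 3 rose, namely Irf8, a transcription factor of myeloid cells (0.46 ± 0.11 SE, edgeR adjusted p = 0.0127), Ifit1 (0.85 ± 0.27 SE, edgeR adjusted p = 0.0463) and Ifit3 (0.89 ± 0.25 SE, edgeR adjusted p = 0.0277). The median log2 fold change of the list was 0.30. R403Q-CD 2 and R403Q-CD 1 had the highest values of Ifit1 (26.4 and 16.5 CPM) and Ifit3 (42.0 and 19.3 CPM), where the R403Q-CD medians were 6.44 and 9.65 CPM, and the summed level of the list was 399 CPM in R403Q-CD 2 and 192 to 299 CPM in the other R403Q-CD mice. Without R403Q-CD 2 and R403Q-EMPA 3 the log2 fold change was 0.68 for Ifit1 (edgeR adjusted p = 0.0584) and 0.69 for Ifit3 (edgeR adjusted p = 0.0152), and the 3 genes that passed were Irf7, Irf8 and Ifit3. Of 21 fits that left out 1 mouse, Ifit1 passed in 8, namely without WT-CD 5, WT-EMPA 2, R403Q-CD 2, 3, 4, 6 or 7 or R403Q-EMPA 4, and Ifit3 in all but those without WT-CD 4, WT-EMPA 1 or R403Q-EMPA 1 or 2. The list's most abundant genes, the interferon-induced GTPases Iigp1 (0.07 ± 0.11 SE), Irgm1 (0.20 ± 0.07 SE) and Gbp2 (0.24 ± 0.11 SE), did not pass with edgeR (adjusted p = 0.721, 0.0570 and 0.135). Of 8 genes of the MHC class II pathway, 5 rose, the chains H2-Aa (0.56 ± 0.12 SE, edgeR adjusted p = 0.0104), H2-Ab1 (0.57 ± 0.15 SE, edgeR adjusted p = 0.0223) and H2-Eb1 (0.45 ± 0.12 SE, edgeR adjusted p = 0.0219), the invariant chain Cd74 (0.38 ± 0.11 SE, edgeR adjusted p = 0.0281) and the protease Ctss (0.82 ± 0.17 SE, edgeR adjusted p = 0.00660). Without both high mice 4 of the 8 passed, Cd74 being the exception (0.27, edgeR adjusted p = 0.0686). In R403Q-CD against WT-CD hearts Ctss passed too (edgeR adjusted p = 0.0384), but not without any one of WT-CD 1 to 4, WT-EMPA 2, R403Q-CD 5 or R403Q-EMPA 2 or 3.

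Markers of macrophages were higher in the same genotype as the members. In the averaged genotype comparison 6 of 8 rose, with a median log2 fold change of 0.55. The summed level of the 8 markers ran from 307 to 412 CPM in WT-CD, from 424 to 725 CPM in R403Q-CD, from 488 to 597 CPM in R403Q-EMPA and from 266 to 454 CPM in WT-EMPA hearts. Adgre1 (0.63 ± 0.12 SE, edgeR adjusted p = 0.00441) and Csf1r (0.47 ± 0.07 SE, edgeR adjusted p = 0.00145), which define macrophages, were both called, and were also called in R403Q-CD against WT-CD hearts, where both calls were lost without any one of WT-CD 1 to 4 or R403Q-CD 5. Without R403Q-CD 2 and R403Q-EMPA 3, 6 of the 8 macrophage markers again passed over both diets, with a median of 0.50. Among single mice, R403Q-CD 2 was highest in the macrophage sum (725 CPM) and in the mean of the standardized members (1.95), and WT-CD 1 and WT-EMPA 1 were low in both (307 and 266 CPM, and -1.004 and -0.74). R403Q-CD 7 went the other way, with the lowest macrophage sum of its group (424 CPM) and a member mean of 0.72. Both leukocyte markers, Ptprc (0.41 ± 0.09 SE) and Coro1a (0.54 ± 0.13 SE), rose, as did the fibroblast markers Dcn and Lum (2 of 5) and the endothelial marker Emcn (1 of 6), whereas Myh6 fell (1 of 6 cardiomyocyte markers). Without both high mice Dcn, Emcn and Cd4 did not pass (edgeR adjusted p = 0.0531, 0.0776 and 0.0689), and Ptprc, Coro1a, Lum and Myh6 did. Of 4 tested markers of T and NK cells Cd4 rose, and the summed level of the 8 listed ran from 0.964 to 3.09 CPM over the 4 groups. The defining markers Cd8a, Nkg7, Ncr1 and Klrb1c were too low to be tested, with at most 15 counts in a library. The part of these cell types in the member result was not tested, and in bulk tissue fewer or more cells of a type cannot be told apart from less or more RNA per cell.

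**Figure D4:**
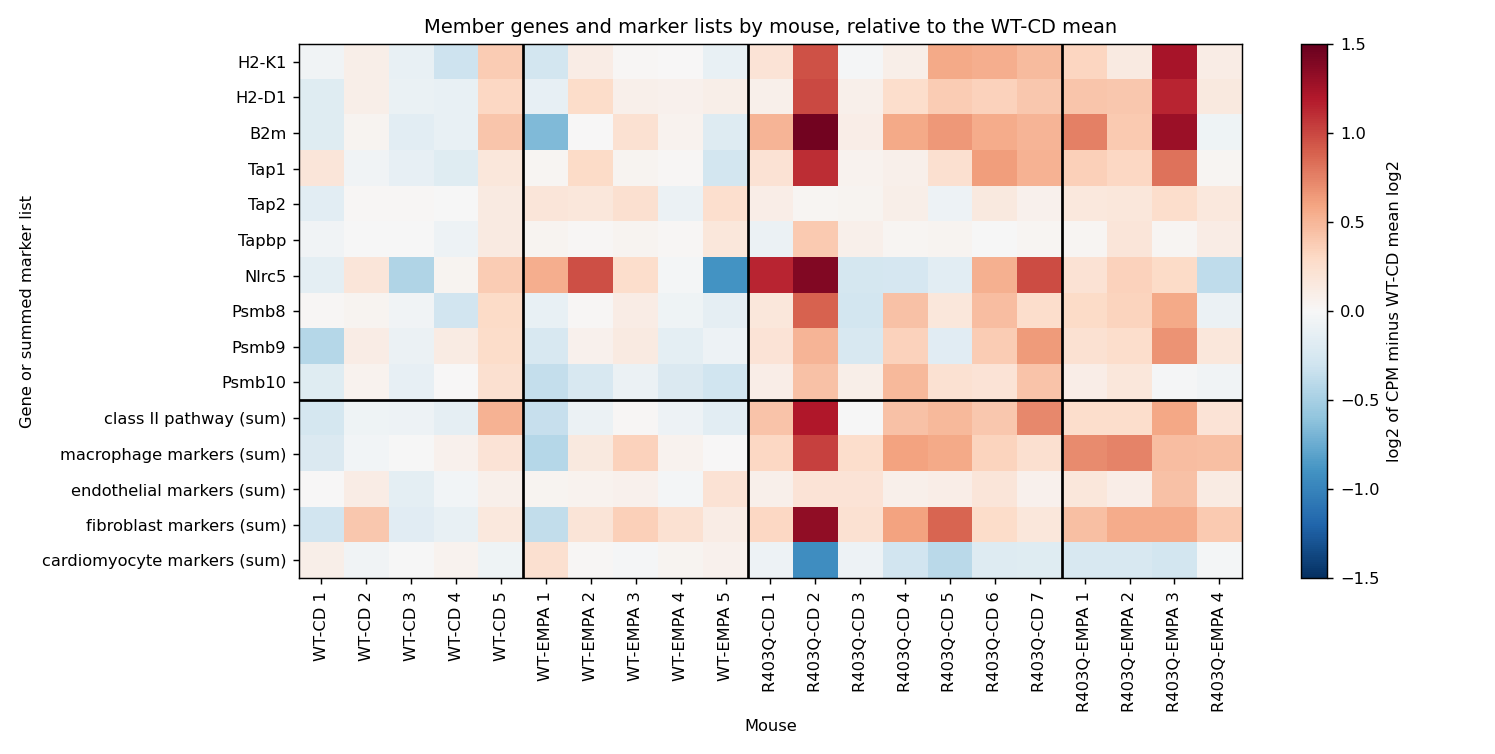
Rows are the 10 members and the summed CPM of 5 gene lists, columns the 21 mice by group, and colours the log2 of CPM minus the WT-CD mean (scale from -1.5 to 1.5). R403Q-CD 2 is the most intense column for 5 members and also for the fibroblast, macrophage and class II sums, and R403Q-EMPA 3 stands out for H2-K1, H2-D1 and B2m, with the highest endothelial sum (967 CPM) and a macrophage sum within the range of its group (493.3 CPM).

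The members varied together among mice to different extents. Over the 21 mice, 44 of the 45 pairs of members had a positive Pearson r of log2 CPM, with a median of 0.524, and without the 2 high mice 42 were positive, with a median of 0.498. H2-K1 and H2-D1, which also share sequence, had the highest r in both cases, 0.938 and 0.837. The lowest was that of Tap2 and Psmb10 over all mice, -0.12, and that of Tapbp and Nlrc5 without the 2 high mice, -0.34, where it had been 0.148. These are descriptions without a test, and the points share group, cage and library effects.

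The genes outside the group that followed the mean of the standardized members most closely over the 21 mice were H2-Ab1 (r = 0.900), Neurl3 (0.891), Cd74 (0.889), H2-Eb1 (0.876), Slc15a3 (0.870), H2-T23 (0.867), Cmtm3 (0.863) and Ifnar2 (0.861). Without R403Q-CD 2 and R403Q-EMPA 3 these r lay between 0.696 for H2-T23 and 0.887 for Ifnar2. After the group means were removed over all mice, r lay between 0.784 for H2-T23 and 0.915 for H2-Eb1. Of these genes, 3 belong to the MHC class II pathway and 1 is a class I gene.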

How the data were processed

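Left ventricular RNA of 21 mice was analysed. The authors selected poly(A) RNA (NEBNext Ultra II), sequenced read pairs, aligned them to mm10 with STAR and deposited counts per Ensembl gene of uniquely aligned proper pairs from featureCounts, without mitochondrial genes; the tools are STAR 2.6.0c, Subread 1.6.2, FastQC 0.11.7 and DESeq2 1.32.0 per the submitters' processing notes. The deposited log2 values are DESeq2's variance-stabilized values and entered an alternative only. Groups came from the labels. Each mouse is 1 sample.

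Counts were tested in R 4.3.3 with edgeR 4.0.16: filterByExpr with a minimum count of 10, TMM scaling, the quasi-likelihood F test in a model of 4 groups, 7 contrasts, and Benjamini-Hochberg adjustment over 17309 genes (threshold 0.05). CPM are counts divided by TMM-scaled library totals and give levels only. Symbols came from GENCODE vM21 (GRCm38), which named 55104 of 55450 genes; 1 of 124 listed genes was not found. Named genes are the 10 members, listed genes past the threshold in any contrast, the 3 most abundant genes of each pathway list and the 8 genes most like the members' mean. The members and lists were chosen with earlier results of these data known. The scripts were tested on simulated data. Alternatives used DESeq2 1.42.0 and limma 3.58.1; cage within a diet, scaling, filtering and leaving out each mouse were also varied. Leaving out both high mice, and all alternatives for listed genes, were added after seeing the data.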

Additional observations from a re-analysis of the deposited data

Results flagged for a closer look

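In groups of 4 to 10 mice, a mouse was singled out where its gap to the nearest other mouse, divided by the range of the group, passed Dixon's 95% critical value. Of 40 combinations of a member and a group, 8 were singled out, 6 of them in R403Q-CD 2 or R403Q-EMPA 3. Chance flags about 1 in 20 for a single combination. These combinations share mice and the members vary together, so the count cannot be set against that rate. R403Q-CD 2 stood apart for H2-D1 (190 CPM, nearest mouse 127 CPM), B2m (373 CPM, nearest 213 CPM) and Tapbp (111 CPM, nearest 89.3 CPM). R403Q-EMPA 3 stood apart for H2-K1 (159 CPM, nearest 84.2 CPM), Tap2 (33.4 CPM, nearest 31.4 CPM) and Psmb9 (6.97 CPM, nearest 5.26 CPM). WT-EMPA 4 stood apart with the lowest Tap2 value (26.3 CPM, nearest 31.3 CPM), and WT-EMPA 5 with the highest Tapbp value of its group (94.8 CPM, nearest 87.0 CPM). No member had an EMPA effect that passed a test of the difference between genotypes, and none moved in opposite directions in every mouse of the genotypes.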

How the results depend on the processing

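The labels number no replicates, and cage, which both genotypes share in 6 of 7 cages, was the block that could be fitted. With alternatives, 5 members called in the averaged genotype comparison became 2 (Tap1 and Psmb10) with cage as a fixed factor, 4 (all but Tap1) without a filter on low counts or with limma on variance-stabilized values, 3 without both high mice and 7 (Psmb8 and Psmb9 added) with DESeq2's Wald test or library size alone, and 2 to 7 with 1 mouse left out (lowest without WT-CD 1, highest without R403Q-CD 3). The call count of R403Q-CD against WT-CD rose from 0 to 2 with DESeq2 and to 1 with library size alone, and was 0 to 2 with 1 mouse left out. In the averaged EMPA comparison the 1 call became 0 without a filter on low counts, with cage as a random effect and without both high mice, and 0 to 2 with 1 mouse left out. The other 4 comparisons had 0 member calls in the alternatives that could be fitted. Over all genes, the averaged genotype comparison called 1883 genes, 2697 with DESeq2 and 944 with cage as a fixed factor, and 961 to 2764 with 1 mouse left out. R403Q-CD against WT-CD called 250, 970 with DESeq2, 98 in the fit of 3 groups and 1128 with cage as a fixed factor. With 1 mouse left out it called 31 to 1045 (lowest without WT-CD 3, highest without R403Q-CD 3). Higher genes made up 57.9% of the averaged genotype calls, and 81.2% with library size alone, where the members kept their direction. The cause of these changes was not tested.

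Of 2020 member fold changes under alternatives, 120 changed sign, none of them called in either fit and all with a main log2 fold change of at most 0.18 in size. Leaving out 1 mouse gave 91 of them and the other alternatives 29. In R403Q-EMPA against R403Q-CD these were B2m -0.0012 with DESeq2's Wald test, B2m -0.0011 with DESeq2 size factors, B2m -0.033 and Tapbp -0.016 with library size alone, B2m -0.029 with limma on variance-stabilized values, B2m -0.032 with cage as a random effect, H2-K1 -0.14, B2m -0.095 and Psmb9 -0.0095 without both high mice. In R403Q-EMPA against WT-EMPA these were Nlrc5 0.097 with cage as a random effect, Tapbp -0.0017 and Nlrc5 0.58 with cage as a fixed factor, Tap2 -0.0053 without both high mice. In the interaction these were Psmb8 -0.0054 with DESeq2's Wald test, Psmb8 -0.0054 and Psmb10 -0.00024 with DESeq2 size factors, Psmb8 -0.021 and Psmb10 -0.012 with library size alone, Psmb10 -0.0029 with limma on variance-stabilized values, Tap1 0.047 and Tap2 0.051 with cage as a fixed factor, H2-K1 -0.076, H2-D1 -0.012 and Tapbp 0.036 without both high mice. In the averaged EMPA comparison these were H2-K1 -0.0067 and Psmb9 -0.013 with library size alone, H2-K1 -0.0027 with limma on variance-stabilized values, H2-K1 -0.10 and Psmb9 -0.040 without both high mice. With 1 mouse left out, values of both signs were found for the following members. For R403Q-EMPA against R403Q-CD the ranges were B2m -0.28 to 0.18, Tapbp -0.018 to 0.071, Tap1 -0.22 to 0.099, Psmb8 -0.16 to 0.066, H2-K1 -0.25 to 0.21, H2-D1 -0.074 to 0.31 and Psmb9 -0.054 to 0.15. For WT-EMPA against WT-CD the ranges were Tap1 -0.049 to 0.092, H2-K1 -0.14 to 0.042, B2m -0.19 to 0.016, Psmb8 -0.11 to 0.031 and Psmb9 -0.16 to 0.0026. For R403Q-EMPA against WT-EMPA the ranges were Nlrc5 -0.33 to 0.094, Tap2 -0.025 to 0.054 and Tapbp -0.0013 to 0.060. For the interaction the ranges were Tap2 -0.081 to 0.010, Psmb8 -0.11 to 0.12, Psmb10 -0.060 to 0.048, B2m -0.17 to 0.29, Tap1 -0.24 to 0.078, Tapbp -0.077 to 0.017, H2-K1 -0.19 to 0.28 and H2-D1 -0.14 to 0.24. For the averaged EMPA comparison the ranges were Tap1 -0.099 to 0.060, Psmb9 -0.062 to 0.040, H2-K1 -0.16 to 0.073, B2m -0.19 to 0.040, Psmb8 -0.10 to 0.0084 and H2-D1 -0.0030 to 0.19.

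Depth limits Nlrc5 most, with 17 to 119 counts a library. Cage and diet cannot be told apart, and groups of 4 to 7 mice leave wide intervals for effects within 1 diet.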

Other observations

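Beyond class I presentation, markers of neutrophils were higher on the EMPA diet over both genotypes. S100a8 (log2 fold change 2.16, edgeR adjusted p = 0.0274) and S100a9 (1.66, edgeR adjusted p = 0.0299), which encode the calprotectin subunits, rose, and Csf3r did not pass. The sum over the neutrophil markers ran from 2.23 to 11.1 CPM in WT-CD, 3.81 to 10.1 CPM in R403Q-CD, 5.81 to 28.7 CPM in R403Q-EMPA and 8.28 to 42.0 CPM in WT-EMPA hearts, so the groups overlapped. Ly6g, a defining marker too low to be tested, was at 0 counts in all 12 mice on the control diet and above 0 in 3 of 5 WT-EMPA and 2 of 4 R403Q-EMPA mice, with at most 9 counts in a library. Of 6 endothelial markers 1 was higher with EMPA, the VEGF receptor Kdr (0.35, edgeR adjusted p = 0.0217), while 2 of the 6 had negative log2 fold changes and the median was 0.03. None of these 3 calls was held with a random cage term in limma's voom, without R403Q-EMPA 3, or without both R403Q-CD 2 and R403Q-EMPA 3 (edgeR adjusted p = 0.0567 for S100a8, 0.0637 for S100a9 and 0.0621 for Kdr). S100a8 was also lost without WT-CD 5, WT-EMPA 5 or R403Q-EMPA 4 and with limma on variance-stabilized values, and S100a9 without WT-CD 2, 3 or 5, WT-EMPA 5 or R403Q-EMPA 4. Diet and cage cannot be told apart in these values.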
